A study of Mus musculus with 9 samples.

Results

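The 7 genes described here, Mpo, Elane, Prtn3, Ctsg, Ms4a3, Prss57 and Nkg7, belong to the promyelocyte, the stage at which the neutrophil precursor fills its first granules. They were taken by symbol from the annotation of an Affymetrix whole-transcript array, and all 7 were among the 19938 genes tested. Each was read by 1 probe set, a group of short probes on the same transcript region. Expression was measured in ERG leukemia marrow of 3 transgenic mice, 1 array each, in lineage-negative marrow as 3 pools of 3 wild type mice, and in whole marrow of 3 wild type mice, 1 array each. All mice were C57BL6 and marrow came from the femur. The ERG mice carried a transgene of the ETS transcription factor ERG and were killed when signs of leukemia appeared, and the labels name no depletion of their marrow, which held a myeloid leukemia. The labels used here give neither the promoter of the transgene nor its species, nor the age or sex of the mice. Lineage depletion removes cells that bear mature blood cell markers with a commercial kit, which leaves progenitors.

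Primary (azurophil) granules are built at the promyelocyte stage, before the secondary and tertiary granules of later neutrophil precursors. They store myeloperoxidase, which makes hypochlorous acid from hydrogen peroxide, and a family of serine proteases that digest engulfed microbes. The messages for these proteins are made early and are shut off as the cell matures, while the proteins persist in the finished neutrophil. In marrow this RNA therefore marks granulocyte precursors rather than mature cells.

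All 7 genes were lower on average in the leukemias than in either wild type group, but few of the differences passed the test, and without leukemia 2 Elane, Prtn3 and Ms4a3 were no longer below lineage-negative marrow. Elane, neutrophil elastase, fell 1.8-fold and Nkg7, a granule membrane protein, fell 2.42-fold against whole marrow, calls lost in 10 and 4 of 17 alternative settings. In that comparison 9.93% of all genes fell. Against lineage-negative marrow Nkg7 was the 1 member past the test, also 2.42-fold lower, where 5.74% of all genes fell. Between lineage-negative and whole marrow 0 of the 7 passed by limma, where 34.7% of all genes passed. There 0 of the 7 had an unadjusted p under 0.05. On the same arrays 16 of 16 genes of secondary granules and mature neutrophils fell, where 2587 of 19938 genes did. The pools had been depleted of cells with mature markers. Leukemia 2 had the lowest value of the 9 arrays for each of the 7 genes.

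The arrays were alike in scale. Median intensity per array lay between 32.3 and 34.4, and within a group the arrays had a Pearson r of 0.971 to 0.995 over all genes. Depletion was visible in Itgam, the integrin subunit of the myeloid marker Mac-1, which stood at a log2 intensity of 6.65, 5.48 and 6.01 in the lineage-negative pools, against 10.96, 11.06 and 10.67 in whole marrow. The mouse Erg gene read 6.60, 6.19 and 6.32 in the leukemias, 7.01, 6.55 and 6.84 in the lineage-negative pools and 7.25, 7.60 and 7.01 in whole marrow, which checks nothing about the transgene itself. All values below are log2 intensities or differences of them unless intensity is named, and a gene is said to rise or fall where the limma adjusted p over all genes was under 0.05. Fewer cells of a type and less RNA per cell cannot be told apart in bulk marrow. Where genes of mature cells rise in the leukemias against the pools, the leukemia and the depletion of the pools cannot be told apart.

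Myeloperoxidase (Mpo), the heme enzyme that gives these granules their peroxidase stain, read 10.90, 10.10 and 10.87 in leukemias 1, 2 and 3, 11.50, 11.06 and 11.40 in the lineage-negative pools and 11.36, 11.44 and 11.08 in whole marrow. Every leukemia lay below every wild type array, while the lineage-negative and whole marrow values overlapped. Against whole marrow the difference was -0.67 ± 0.22 (SE, adjusted p = 0.0572), with a 95% interval from -1.17 to -0.17. Against lineage-negative marrow it was -0.70 ± 0.22 (adjusted p = 0.0927). Neither passed the threshold. Lineage-negative marrow differed from whole marrow in Mpo by 0.03, with an interval from -0.47 to 0.53.

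Elane encodes the elastase whose human counterpart is mutated in congenital neutropenia. Its values were 10.64, 9.85 and 10.82 in the leukemias, 11.05, 10.33 and 10.77 in the lineage-negative pools and 11.38, 11.42 and 11.06 in whole marrow. Every whole marrow array lay above every other array, the closest being whole marrow array 3 and pool 1, and the leukemias overlapped the pools. The fall against whole marrow was -0.85 ± 0.27 (adjusted p = 0.0475), from a mean intensity of 1386.6 in the leukemias against 2501.8 in whole marrow. The call was lost in 10 of 17 alternatives, at adjusted p up to 0.13, namely without any 1 whole marrow array, without leukemia 1 or 2 or pool 1 or 3, with quantile normalization, with array weights and with the 2 groups alone. Against lineage-negative marrow the leukemias stood at -0.28, with an interval from -0.88 to 0.33, and at 0.014 without leukemia 2. Lineage-negative less whole marrow was -0.57 ± 0.27 (adjusted p = 0.137).

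Prtn3, proteinase 3, is the close neighbour of Elane and an elastase-like protease. It read 9.80, 8.30 and 9.86 in the leukemias, 9.92, 9.03 and 9.52 in the lineage-negative pools and 10.11, 10.42 and 9.51 in whole marrow. Leukemias 1 and 3 lay inside the wild type range and leukemia 2 lay below it. The difference was -0.69 ± 0.43 against whole marrow (adjusted p = 0.311) and -0.17 ± 0.43 against lineage-negative marrow (adjusted p = 0.886), with an interval from -1.16 to 0.82 for the second. The second turned to 0.338 without leukemia 2, to 0.079 with array weights and to 0.045 without pool 1.

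Cathepsin G (Ctsg), the chymotrypsin-like protease of the same granule, read 10.24, 9.17 and 10.38 in the leukemias. In the lineage-negative pools it read 10.86, 10.27 and 10.80, and in whole marrow 10.80, 11.09 and 10.40. The leukemias lay below all whole marrow arrays, the closest pair being 10.38 and 10.40, and overlapped pool 2. Ctsg stood at -0.83 ± 0.32 against whole marrow (adjusted p = 0.101) and at -0.71 ± 0.32 against lineage-negative marrow (adjusted p = 0.239). Between the wild type groups the difference was -0.12, with an interval from -0.86 to 0.62.

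Prss57, also known as neutrophil serine protease 4, cuts after arginine. Its signal was 6.07, 5.03 and 6.10 in the leukemias, 6.90, 6.02 and 6.56 in the lineage-negative pools and 7.22, 7.69 and 6.23 in whole marrow. The leukemia 2 value equals an intensity of 32.6, below the median of all probe sets of 33.4, so the size of its change there is limited by background. The difference from whole marrow, -1.32 ± 0.42, was the largest of the 7 in size and missed the threshold (adjusted p = 0.0514), with groups that did not overlap. Against lineage-negative marrow it was -0.76 ± 0.42 (adjusted p = 0.346).

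Ms4a3 encodes a membrane protein that spans the membrane 4 times and marks granulocyte and monocyte progenitors in mice. It was the most variable of the 7 within the leukemias, at 9.33, 7.41 and 9.50, against 9.97, 8.70 and 9.43 in the lineage-negative pools and 10.0, 10.53 and 9.23 in whole marrow. Leukemias 1 and 3 overlapped both wild type groups. Its standard deviation in the leukemias was 1.16. The differences of -1.17 ± 0.59 from whole marrow (adjusted p = 0.198) and -0.62 ± 0.59 from lineage-negative marrow (adjusted p = 0.635) did not pass the test. Without leukemia 2 the second stood at 0.047.

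Nkg7 encodes a granule membrane protein best known from the cytotoxic granules of NK and T cells. It read 8.77, 8.32 and 8.58 in the leukemias, 10.42, 9.13 and 9.94 in the lineage-negative pools and 10.0, 10.19 and 9.30 in whole marrow. The leukemias were close to each other, with a standard deviation of 0.22, and every one lay below every wild type array. Nkg7 fell by 1.27 on the log2 scale against whole marrow (SE 0.33, adjusted p = 0.0235) and by the same amount against lineage-negative marrow (SE 0.33, adjusted p = 0.0499). Mean intensity was 376.2 in the leukemias, 910.2 in the pools and 910.4 in whole marrow, and the interval of the wild type difference ran from -0.76 to 0.76.

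**Figure D1:**
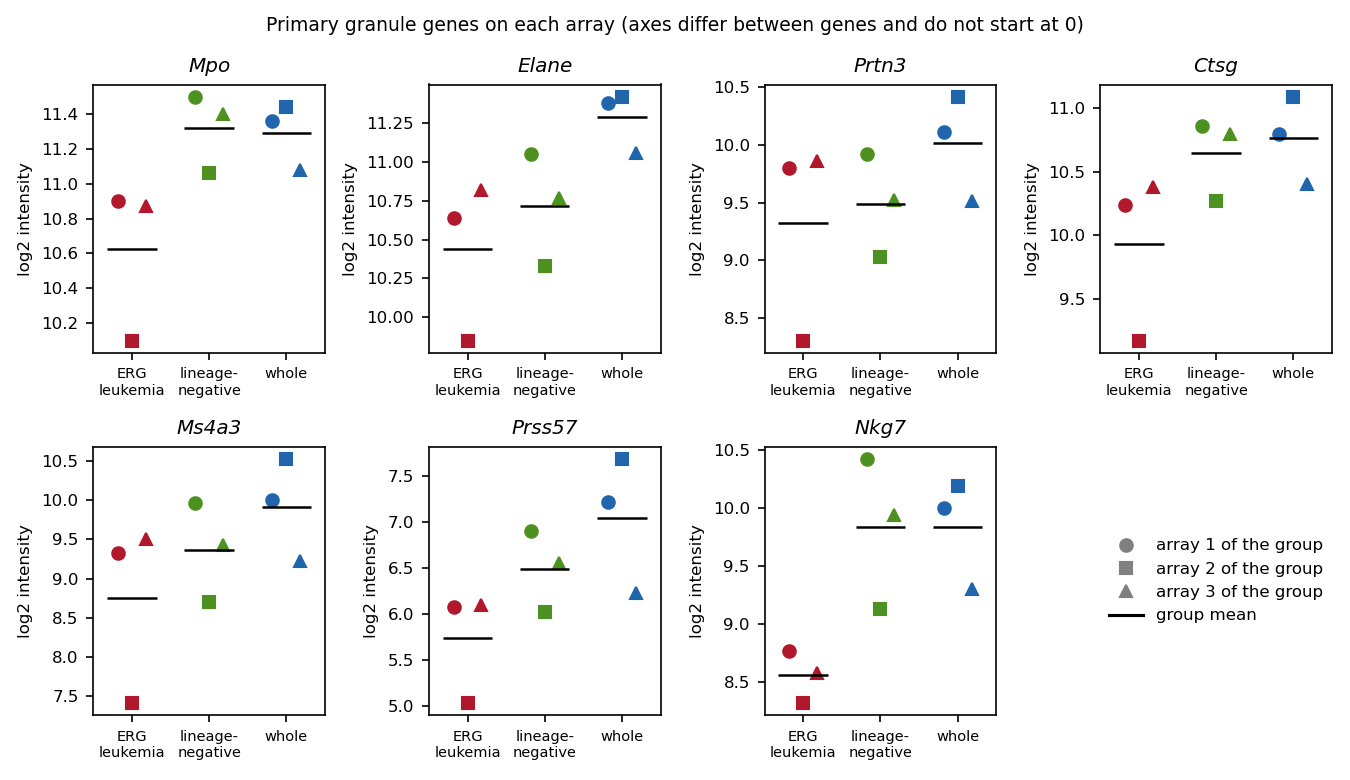
Log2 intensity (y axis) of each of the 7 genes on every array, with leukemias, lineage-negative pools and whole marrow from left to right; symbols mark array 1, 2 and 3 of a group, and the black line is the group mean. Leukemia 2 is the lowest point in each panel, and in Mpo and Nkg7 all 3 leukemias lie below every wild type array.

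Read as a group, the 7 genes had a median difference of -0.85 between the leukemias and whole marrow, against -0.02 over all genes. Of the 7, 2 fell and 5 did not pass, where 9.93% of all genes fell. The leukemia and whole marrow arrays did not overlap for 5 of the 7, with the leukemias lower, against 17.7% of all genes in that direction. Without leukemia 2, without whole marrow array 1 or without whole marrow array 2 none of the 7 passed, while leaving out leukemia 3 or lineage-negative pool 1 or 3 left 1 of the 7, as using array weights or the 2 groups alone did. When arrays were centred on the 75th percentile 5 members fell, and 4 fell after cyclic loess, among bright genes alone or with an intensity trend. An unchanged count hides a change of genes, since Prss57 took the place of Elane with quantile normalization or without whole marrow array 3, and Mpo did without leukemia 1.

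Against lineage-negative marrow the median of the 7 was -0.70, against 0.01 over all genes. Nkg7 fell and 6 did not pass, where 5.74% of all genes fell. Mpo and Nkg7 had leukemia arrays that were all lower than the pools, against 16.3% of all genes. The Nkg7 call was lost without any 1 array other than lineage-negative pool 2 or whole marrow array 3, at adjusted p from 0.0567 to 0.145. It was also lost after cyclic loess, with the 2 groups alone and where the probe set of the highest variance stood for each gene. This comparison shares its leukemia arrays with the one above.

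Between the wild type groups 0 of the 7 passed by limma and 0 had an unadjusted p under 0.05, where 34.7% of all genes passed (4328 rose and 2587 fell of 19938). The median difference, lineage-negative less whole marrow, was -0.52, against -0.03 over all genes. Mpo, Ctsg and Nkg7 lay within 0.12 of 0, while Elane, Prtn3, Ms4a3 and Prss57 lay between -0.57 and -0.52. Only Elane, among the 7, had pools that were all below whole marrow, against 23.4% of all genes, and it fell when arrays were centred on their 75th percentile (-0.731) or leukemia 2 was left out of the shared spread.

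**Figure D2:**
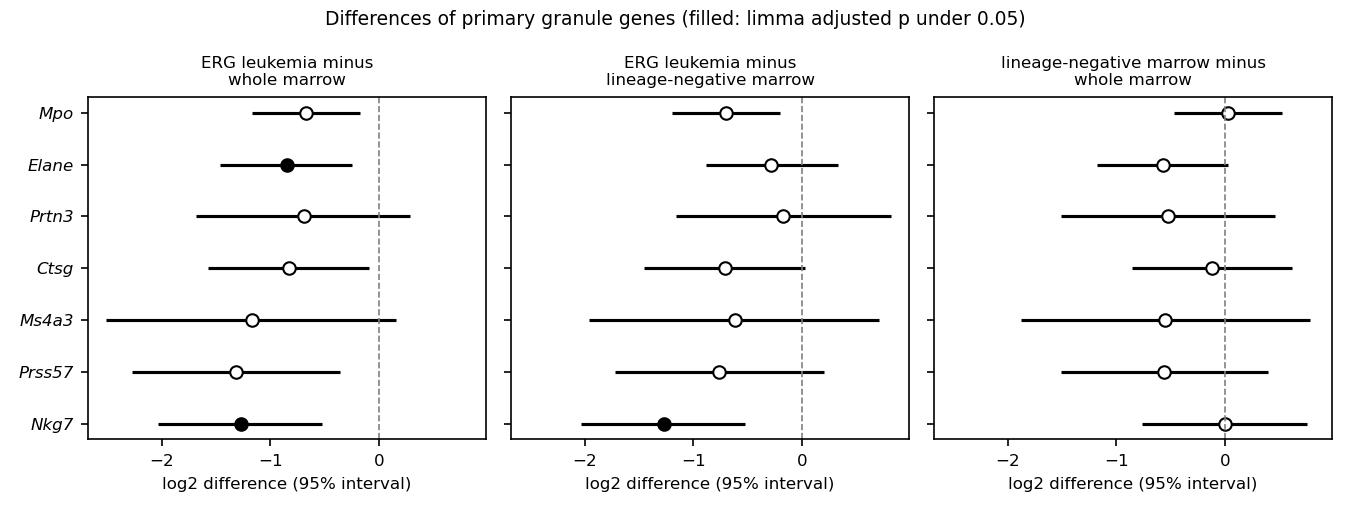
Log2 differences (x axis) of the 7 genes with their 95% intervals (lines) in the 3 comparisons; filled points passed the limma adjusted p of 0.05. Elane and Nkg7 are filled in the first panel, Nkg7 alone in the second and none in the third.

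The same array was the lowest of its group for all 7 genes. Leukemia 2 was the lowest of its group for 7 of 7, while the highest was leukemia 3 for 5 genes and leukemia 1 for Mpo and Nkg7. Among the lineage-negative arrays pool 2 was lowest and pool 1 highest for 7 of 7, and among the whole marrow arrays array 3 was lowest and array 2 highest for 7 of 7. The mean deviation of the 7 genes from the group mean was 0.34, -0.74 and 0.39 in leukemias 1, 2 and 3. It was 0.39, -0.48 and 0.08 in the lineage-negative pools and 0.10, 0.38 and -0.48 in whole marrow. Across the 21 pairs of members, the correlation of these deviations over the 9 arrays ran from 0.717 to 0.998 with a median of 0.942, given as a description of arrays whose genes share RNA and scaling. The pairs with Nkg7 were the lowest, at 0.717 to 0.86, and every other pair stood at 0.88 or above. Their spread within groups was wide for this platform, with a median standard deviation of 0.61 in the leukemias, 0.44 in the pools and 0.46 in whole marrow, against 0.13, 0.1 and 0.13 over all genes.

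**Figure D3:**
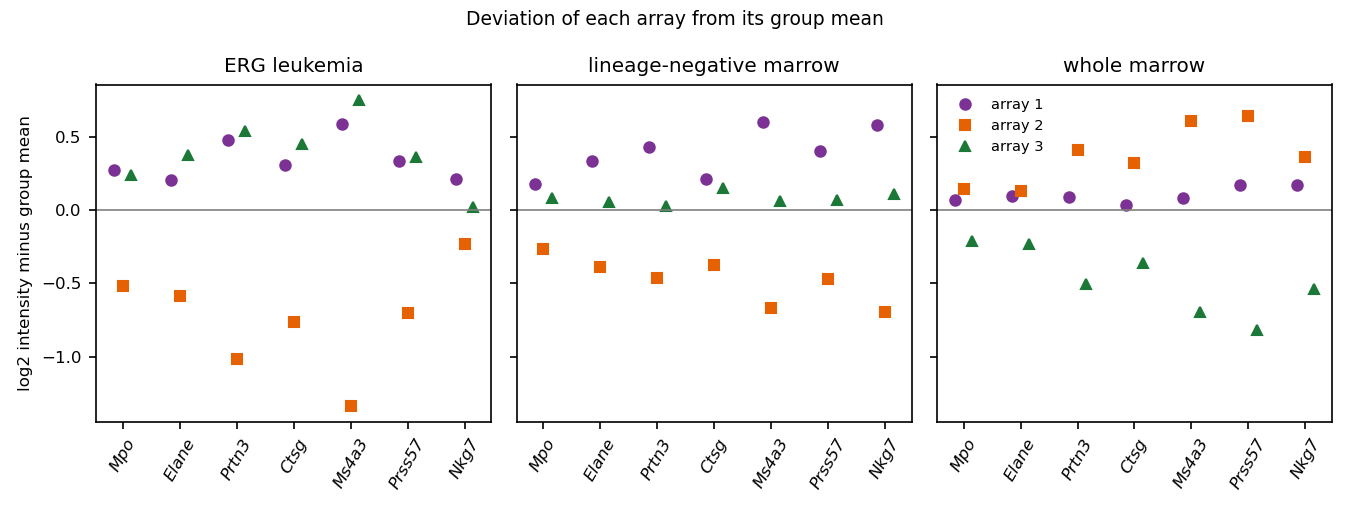
Deviation of each array from its group mean in log2 intensity (y axis) for the 7 genes (x axis), with 1 panel per group and 1 symbol per array. Leukemia 2, lineage-negative pool 2 and whole marrow array 3 lie below 0 for all 7 genes.

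Some marker lists of other cells moved with this order and others did not. The erythroid markers, 9 measured of 12 listed, summed to an intensity of 12935, 16058 and 14311 in the leukemias, to 12056, 14136 and 12625 in the lineage-negative pools and to 5252, 3493 and 7944 in whole marrow. In each group the array lowest in the primary granule genes was thus the one highest in erythroid signal, namely leukemia 2, pool 2 and whole marrow array 3. The monocyte markers, 10 measured of 12, summed to 5175, 2474 and 6040 in the leukemias, 3152, 1592 and 2380 in the pools and 4384, 6285 and 4213 in whole marrow, lowest on the same 3 arrays. Secondary granule and mature neutrophil genes summed to 33408, 21150 and 30407 in the leukemias, 3011, 977 and 2271 in the pools and 61605, 59067 and 52404 in whole marrow, again lowest there. The basophil and mast cell sum was lowest on leukemia 3 (1463, against 2888 and 1798 on leukemias 1 and 2), and in whole marrow the eosinophil, NK and B cell sums were lowest on array 2, so these lists did not follow the order throughout. The part of cell composition in the differences of the 7 genes was not tested.

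The NK and cytotoxic T cell list is given beside Nkg7 because that gene is also known from these cells. All 14 listed genes were measured, and 7 had a leukemia mean below the median intensity of all probe sets, against 4 in the pools and 2 in whole marrow. The list summed to 567 to 861 in the leukemias, 736 to 1221 in the pools and 1025 to 1715 in whole marrow. Against whole marrow 8 of the 14 fell in the leukemias (9.93% of all genes fell), led by the T cell genes Cd2 at -1.97 ± 0.45 and Cd3e at -1.34 ± 0.24. Without whole marrow array 1 the count was 4 and Cd2 did not pass. In lineage-negative against whole marrow, where 2587 of 19938 genes fell and 4328 rose, 5 of the 14 fell and Gzmb, granzyme B, rose by 0.86 ± 0.27, while Nkg7 itself was level with whole marrow. Against lineage-negative marrow 1 of the 14 fell in the leukemias, where 5.74% of all genes fell, and the list median was -0.18. The gene was Gzmb (-1.36 ± 0.27, adjusted p = 0.0195), a call lost with the 2 groups alone (adjusted p = 0.0568). The leukemia mean of Gzmb, 21.3, is below the median intensity, which limits the size of that difference. The Gzmb rise in the pools was lost without any 1 whole marrow array and with the 2 groups alone, and 8 of the list fell there without whole marrow array 2, with 75th percentile centring or with array weights. The part of NK cells, T cells or other cells in the Nkg7 values was not tested.

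Genes of the later granules ran differently from the 7. Of 16 secondary granule and mature neutrophil genes, 16 rose in the leukemias against lineage-negative marrow with a median of 3.99, where 2.95% of all genes rose. Only the pools are named as depleted of cells with mature markers, so these rises cannot be told apart from that depletion. Chil3, a chitinase-like protein of neutrophils, read 11.25, 10.87 and 11.53 in the leukemias and 5.56, 4.60 and 6.06 in the pools. Ltf, lactoferrin, the classic secondary granule protein, rose by 4.99 ± 0.39 (adjusted p = 0.000566) in the same comparison, from a mean intensity of 1562.4 in the leukemias against 49.0 in the pools. Against whole marrow Ltf stood at -1.30 ± 0.39 in the leukemias. In lineage-negative against whole marrow 16 of 16 fell with a median of -5.25, where 2587 of 19938 genes fell, with Ltf at -6.30 ± 0.39. In the leukemias against whole marrow 9 of 16 fell, where 9.93% of all genes did, among them Padi4, which citrullinates histones, at -2.31 ± 0.25 and the chemokine receptor Cxcr2 at -2.23 ± 0.33, and the median was -1.36. That count was 14 without lineage-negative pool 2 or with the 2 groups alone. In the wild type groups the median difference was thus -5.25 for the later granule genes and -0.52 for the 7 primary granule genes, values that stand side by side without a test between them.

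Genes listed as other promyelocyte and granulocyte-monocyte progenitor genes followed neither pattern throughout. Whether each is confined to those stages was not tested. Hdc also stands in the basophil and mast cell list and Cd34 in the stem and progenitor list. Hp and Csf3r (-3.57 each) were among those that fell in lineage-negative against whole marrow, as the later granule genes did. Against whole marrow 12 of 16 fell in the leukemias with a median of -1.16 (9.93% of all genes fell), led by Csf3r, which binds granulocyte colony-stimulating factor, at -2.55 ± 0.37 and Hdc, which makes histamine, at -2.38 ± 0.35. The count was 4 without whole marrow array 1 or 2. Against lineage-negative marrow, where 2.95% of all genes rose and 5.74% fell, 4 rose, with Hp, haptoglobin, at 2.5 ± 0.37, and 1 fell, Cd34, a progenitor surface protein, at -2.5 ± 0.28. In lineage-negative against whole marrow 11 fell with a median of -1.84 (2587 of 19938 genes fell), led by Fcnb, a ficolin, at -4.37 ± 0.44 and Clec5a, a myeloid lectin receptor, at -3.90 ± 0.56. There Cd34 (1.51 ± 0.28) and Calr, a chaperone (0.50 ± 0.15), rose, and 1 gene of the list rose without whole marrow array 1 or 3 or pool 1 or 3.

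**Figure D4:**
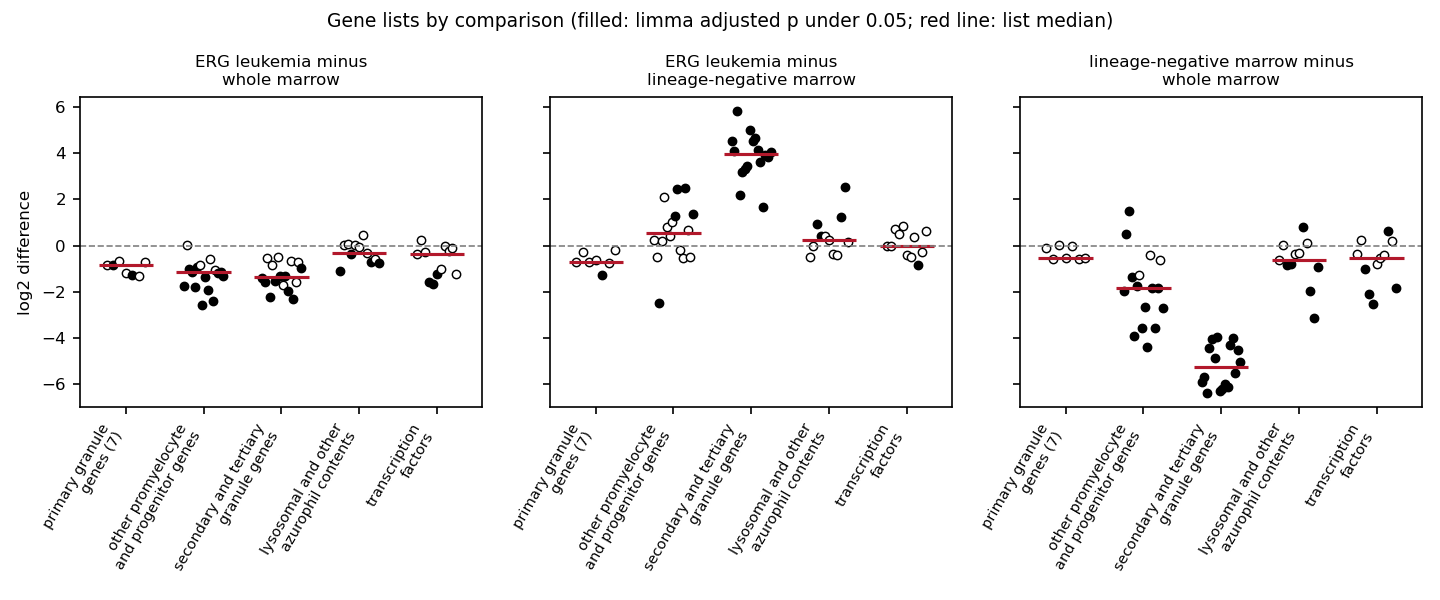
Log2 differences (y axis) of single genes in 5 lists (x axis) for the 3 comparisons; filled points passed the limma adjusted p of 0.05 and the red line is the list median. In the third panel the list median is -0.52 for the primary granule genes and -5.25 for the secondary and tertiary granule genes.

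The genes that activate, pack and restrain the granule proteases moved singly. Ctsc, the peptidase that trims elastase, proteinase 3 and cathepsin G into active enzymes, read 9.94, 8.18 and 10.40 in the leukemias, 8.38, 7.27 and 7.66 in the pools and 9.28, 9.99 and 9.45 in whole marrow. It fell in lineage-negative against whole marrow (-1.80 ± 0.54, adjusted p = 0.0289), a call lost without pool 2 or 3 or any 1 whole marrow array. In the leukemias it stood at -0.07 ± 0.54 against whole marrow and at 1.73 ± 0.54 against the pools (adjusted p = 0.0864). Of the 10 activation and packaging genes 2 rose and 2 fell in the leukemias against whole marrow, where 24.5% of all genes passed either way. Cd63, a tetraspanin of the azurophil granule membrane, fell by 1.55 on the log2 scale (SE 0.36), and G6pc3, a glucose-6-phosphatase needed by neutrophils, rose by 1.01 ± 0.14. G6pc3 also rose in the pools against whole marrow, by 1.24 ± 0.14. Leaving out whole marrow array 1 or 2 ended the Cd63 call and left 0 of the 10 lower, 1 fell without leukemia 2, and 4 fell with 75th percentile centring. After cyclic loess 1 of the 10 rose. In lineage-negative against whole marrow 5 of the 10 fell (2587 of 19938 genes did), and 1 to 3 fell without whole marrow array 1 or 2, any 1 pool or leukemia 1. Against lineage-negative marrow 0 of the 10 passed by limma in the leukemias and 3 had an unadjusted p under 0.05. Without leukemia 2, 2 of them rose.

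Of 8 protease inhibitors measured of 11 listed, Serpinb6b rose in the leukemias against whole marrow (1.64 ± 0.22, adjusted p = 0.00162). It also rose in the pools against whole marrow (1.24 ± 0.22, adjusted p = 0.00248), and leukemias less pools was 0.40 ± 0.22 (adjusted p = 0.347). Serpinb1a, the main cytosolic inhibitor of these proteases in mouse neutrophils, read 9.47, 8.28 and 9.68 in the leukemias, 8.67, 7.72 and 8.53 in the pools and 10.24, 10.62 and 9.82 in whole marrow. It stood at -1.09 ± 0.40 against whole marrow (adjusted p = 0.0827). In lineage-negative against whole marrow Serpinb1a fell by 1.92 on the log2 scale (SE 0.40, adjusted p = 0.00528), 1 of 2 of the 8 inhibitors that fell (2587 of 19938 genes did), or of 4 with 75th percentile centring. Among the 11 lysosomal and other azurophil contents, lysozyme Lyz2 rose in the leukemias against the pools by 2.55 ± 0.38 and fell in the pools against whole marrow (-3.12 ± 0.38), so that it moved with the later granule genes. Against whole marrow 4 of the 11 fell in the leukemias, where 9.93% of all genes fell, led by Arsb, a lysosomal sulfatase, at -1.11 ± 0.28. The count was 1 without whole marrow array 1 or leukemia 2, either of which ended the Arsb call, and 2 without whole marrow array 2 or with array weights.

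Transcription factors listed for their ties to primary granule genes were measured in full, 11 of 11. The list is mixed, since it holds the repressor Gfi1, and Irf8 and Klf4 also stand in the monocyte list. Its counts therefore give no direction for the 7 genes. Against whole marrow 3 of the 11 fell in the leukemias (9.93% of all genes fell), namely Cebpe, which is needed for the switch to secondary granules, at -1.65 ± 0.36, Cebpd at -1.56 ± 0.25 and Gfi1, a repressor that granulocytes need, at -1.21 ± 0.33. The count was 5 with 75th percentile centring, cyclic loess, bright genes alone or an intensity trend. Cebpa, which starts the granulocyte program, read 6.58, 6.22 and 7.26 in the leukemias, 7.36, 5.95 and 6.79 in the pools and 6.85, 6.21 and 6.25 in whole marrow, with overlap among all groups. Myb, a progenitor factor known to act on the Elane promoter, fell against the pools (-0.84 ± 0.14, adjusted p = 0.00902) and stood at -0.23 ± 0.14 against whole marrow. Spi1 (PU.1) stood at -1.22 ± 0.40 against whole marrow (adjusted p = 0.0571) and fell in the pools against whole marrow (-1.84 ± 0.40, adjusted p = 0.00677). Without leukemia 2, 3 of these factors rose against the pools, and 2 did with array weights.

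The promoters of Mpo and of 3 of the serine proteases are shown, the 4 member promoters that held the PU.1 letters given below. Those of Ms4a3 and Nkg7, which lacked these letters, are not printed, although the deviations of Ms4a3 and Prtn3 correlated at 0.998. Any part of these sequences in the pattern of the 7 genes was not tested. RefSeq promoters of the assembly GRCm38.p6 were found for 6 of the 7 members, all but Prss57. The 250 bases before each transcription start are printed 5′ to 3′ on the coding strand. Capitals mark matches on either strand to the PU.1 motif GAGGAAG, the MYB motif AACGG and the RUNX motif TGTGGT. On the other strand the RUNX motif reads ACCACA. None of the marked matches overlap.
Prtn3, chr10:79879417-79879666, plus strand: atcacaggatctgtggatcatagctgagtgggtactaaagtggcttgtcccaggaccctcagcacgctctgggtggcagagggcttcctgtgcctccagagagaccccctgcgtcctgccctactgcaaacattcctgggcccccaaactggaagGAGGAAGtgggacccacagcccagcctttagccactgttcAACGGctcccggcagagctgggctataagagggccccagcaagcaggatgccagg
Elane, chr10:79886062-79886311, plus strand: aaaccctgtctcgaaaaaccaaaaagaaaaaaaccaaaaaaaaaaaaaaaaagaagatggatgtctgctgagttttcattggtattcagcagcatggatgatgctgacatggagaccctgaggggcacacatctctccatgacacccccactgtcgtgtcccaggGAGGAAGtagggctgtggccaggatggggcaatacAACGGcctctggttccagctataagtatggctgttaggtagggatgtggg
Mpo, chr11:87793534-87793783, plus strand: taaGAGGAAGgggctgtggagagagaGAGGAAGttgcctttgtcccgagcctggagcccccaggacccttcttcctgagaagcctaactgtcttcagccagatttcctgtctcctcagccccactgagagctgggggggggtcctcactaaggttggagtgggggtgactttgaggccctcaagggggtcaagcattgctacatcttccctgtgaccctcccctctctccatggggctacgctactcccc
Ctsg, chr14:56102575-56102824, minus strand: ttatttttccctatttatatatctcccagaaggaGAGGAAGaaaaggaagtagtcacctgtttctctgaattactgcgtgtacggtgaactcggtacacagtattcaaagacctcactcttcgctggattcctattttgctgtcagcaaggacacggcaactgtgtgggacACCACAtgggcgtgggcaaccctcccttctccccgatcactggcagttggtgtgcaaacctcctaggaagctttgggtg
In Prtn3 the PU.1 match began 95 bases before the start and the MYB match 55 bases before it, and in Elane they began 85 and 50 bases before it, in the same order and on the coding strand. Mpo held the PU.1 letters 2 times, beginning 247 and 224 bases before the start, and Ctsg held them 216 bases before it with a RUNX match 79 bases before it. Over windows of 300 bases, which add 50 bases after the start, the PU.1 letters were in 4 of 6 member promoters and in 13.6% of 32851 RefSeq promoters of that length. The RUNX letters were in 2 of 6, against 16.8% of all promoters, and the MYB letters in 2 of 6, against 17.4%. The C/EBP letters TTGCNNAA were in 1 of 6, that of Ms4a3 after its start, against 10.8%, and the GATA letters AGATAA in 0 of 6, against 11.2%. These are matches of letters in a short window, not sites shown to be bound.

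By limma calls the chromosomal neighbours did not move as a block in the leukemias. Prss57, Prtn3 and Elane lie near each other on chromosome 10, with 19 of their 20 nearest protein-coding neighbours measured, taking 8 genes on each side in the RefSeq table. Of these 19, 7 rose and 5 fell in the leukemias against whole marrow, where 24.5% of all genes passed. Those that fell were Fstl3, Palm, R3hdm4, Kiss1r and Arid3a, from -1.13 ± 0.16 in Arid3a, a B cell and progenitor DNA-binding factor, to -0.54 ± 0.11 in Fstl3. Bsg, Polrmt, Rnf126, Ptbp1, Med16, Wdr18 and Tmem259 rose by 0.45 to 0.88. The calls of Bsg and Polrmt were lost with 75th percentile centring and cyclic loess, that of Ptbp1 with the first and that of Med16 with the second, and that of Bsg also without whole marrow array 1 or 2 or leukemia 2. That of R3hdm4 was lost without whole marrow array 1 or 2, pool 3 or any 1 leukemia, and with the 2 groups alone. Against lineage-negative marrow Wdr18 fell (-0.59 ± 0.12, adjusted p = 0.0207, where 5.74% of all genes fell, lost without pool 1 or leukemia 3) and 18 of the 19 did not pass. Within groups, Fstl3, Palm, Plppr3, Kiss1r and Arid3a were each lowest on leukemia 2, pool 2 and whole marrow array 3, as the members were. Bsg and Rnf126 were highest on those arrays. Plppr3, next to Prtn3, stood at -0.10 ± 0.34 against whole marrow and at -0.63 ± 0.34 against the pools.

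Ctsg lies on chromosome 14 in a cluster of mast cell protease and granzyme genes, of which 14 of 16 nearest neighbours were measured. Its next neighbour Mcpt8, a basophil protease gene, read 8.21, 6.04 and 7.14 in the leukemias, 11.26, 10.63 and 11.33 in the pools and 10.12, 9.83 and 9.42 in whole marrow. Mcpt8 fell against the pools by 3.95 on the log2 scale (SE 0.48, adjusted p = 0.00285) and against whole marrow by 2.66 (SE 0.48, adjusted p = 0.00495), where Ctsg stood at -0.71 and -0.83. Sdr39u1 rose in the leukemias against whole marrow by 1.01 ± 0.16, and the other 12 neighbours of Ctsg did not pass there, so that 2 of 14 passed, where 24.5% of all genes did. Against the pools Mcpt8 and Gzmb fell and 12 did not pass, where 5.74% of all genes fell.

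Likeness in pattern was measured by Pearson's r over the 9 arrays, among 2823 brighter genes with a standard deviation of at least 0.5. The 6 genes most like the mean of the 7 were Mfsd13a (0.98), Alas1 (0.974), Dock1 (0.969), Psmb9 (0.963), Gng12 (0.963) and Ctbp2 (0.961). Alas1, the general first enzyme of heme synthesis, read 8.10, 7.14 and 8.53 in the leukemias, 8.84, 8.13 and 8.65 in the pools and 8.81, 9.46 and 8.52 in whole marrow. Its erythroid counterpart Alas2 read 8.13, 9.81 and 9.51 in the leukemias, 6.90, 7.57 and 7.08 in the pools and 7.38, 6.65 and 8.49 in whole marrow. The order of arrays was the reverse of that of Alas1 in the pools and in whole marrow. Leukemia 2 was the lowest leukemia for Alas1 and the highest for Alas2. For single members the most alike were Cmtm7 for Mpo (0.985), Plac8 for Elane (0.989), Tfec for Prtn3 (0.98), Gng12 for Ctsg (0.976), Psmb9 for Ms4a3 (0.978), Pam for Prss57 (0.98) and Bace1 for Nkg7 (0.946). These values describe 9 arrays that share 3 groups and 1 scaling.

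Heme synthesis as a whole did not follow Alas1. Of 8 enzymes measured of 9 listed, 3 rose in the leukemias against whole marrow, where 14.6% of all genes rose, led by Cpox at 2.57 ± 0.26 and Fech, ferrochelatase, at 1.39 ± 0.31. The count was 5 without whole marrow array 3. In lineage-negative against whole marrow 5 of the 8 rose, with Cpox at 2.08 ± 0.26, where 4328 of 19938 genes rose. Alas1 stood at -1.01 ± 0.37 (adjusted p = 0.0846), and it fell with 75th percentile centring, among bright genes alone or without leukemia 3. Against lineage-negative marrow 0 of the 8 passed by limma and 2 had an unadjusted p under 0.05. The NADPH oxidase, which makes the superoxide that feeds myeloperoxidase its peroxide, was measured in 5 of 6 subunit genes. All 5 of these rose in the leukemias against the pools (2.95% of all genes rose), led by Cybb at 3.20 ± 0.40, and 3 rose with the 2 groups alone or without pool 2 or 3 or leukemia 1 or 3. These rises cannot be told apart from the depletion of the pools. Against whole marrow 3 of the 5 fell (9.93% of all genes fell), led by Ncf1 and Ncf4 at -1.55 each, of which Ncf4 was lost without whole marrow array 1 or 2, and in the pools against whole marrow 5 of 5 fell (2587 of 19938 genes did).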

How the data were processed

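Expression was measured on 9 Affymetrix arrays, 3 per group, of marrow from 15 mice. The deposited values are intensity values per probe set on a linear scale, which the authors computed by RMA with Partek software (per the submitters' processing notes); the sources used here name neither a version nor a genome build. They were log2-transformed and not normalized again. Probe sets with 1 gene symbol (21789 of 28853; 1621 had several and 5443 none) were kept, symbols were updated through Entrez identifiers, and the probe set with the highest mean stood for a gene, which left 19938 genes (19856 found in the RefSeq table of GRCm38.p6).

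The 3 groups were compared for every gene in a single limma 3.58.1 fit (R 4.3.3; eBayes without a trend, 6 residual and 2.62 prior degrees of freedom), two-sided, with p-values adjusted by Benjamini-Hochberg over all genes. The spread is shared by single mice and pools, so a p-value here mixes both kinds of spread, and 3 arrays per group limit precision. The model was tested on simulated data. Figures were drawn with matplotlib 3.10.9.

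Groups follow the titles; leukemias were numbered in accession order. Same-numbered wild type arrays came from different mice, and their deviations correlated at 0.312, -0.009 and -0.009 over genes, so numbers were not used as pairs. The 7 members, the 15 other gene lists and the naming rule (all members; in each list the 2 largest changes past the threshold; the 6 genes most like the mean of the members) were chosen with earlier results of these data known. Genes named outside the rule, among them Ctsc, Spi1, Cebpa, Gfi1, Alas2 in the likeness account, Itgam and Calr, were chosen after their values were seen. Alternatives were 3 scalings, a filter on dim genes, an intensity trend, array weights, the 2 groups alone, another probe set rule, each array left out and the replicate number as a block.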

Additional observations from a re-analysis of the deposited data

How the results depend on the processing

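The number of members past the threshold against whole marrow, 2, was 5 with 75th percentile centring, 4 after cyclic loess, with bright genes alone and with an intensity trend, 1 with array weights and with the 2 groups alone, and 0 to 2 with 1 array left out. Against lineage-negative marrow, where it was 1, it was 2 with array weights, 0 after cyclic loess, with the 2 groups alone and with the probe set of highest variance, and 0 to 1 with 1 array left out. Between the wild type groups, where it was 0, it was 1 with 75th percentile centring and 0 to 1 with 1 array left out. The causes were not tested. The difference from whole marrow stayed below 0 for each of the 7 genes under all 17 alternatives, with the smallest in size at -0.185 for Prtn3 without leukemia 2. Against lineage-negative marrow without leukemia 2, Elane, Prtn3 and Ms4a3 stood above 0, at 0.014, 0.338 and 0.047, with no call at either setting, and Prtn3 also did with array weights (0.079) and without pool 1 (0.045).

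Over all genes, 1980 fell in the leukemias against whole marrow, or 1248 to 1915 with 1 array left out (1248 without whole marrow array 1). Against lineage-negative marrow 589 were higher, or 1388 with array weights and 268 to 827 with 1 array left out, and 1144 were lower, or 2001 and 490 to 1174. In lineage-negative against whole marrow 2587 were lower, or 3887 with 75th percentile centring. Of the calls, 59.4% were higher against whole marrow (44.7% with 75th percentile centring, 45.5% after cyclic loess), 34% against lineage-negative marrow (46.8% and 49.5%) and 62.6% between the wild type groups (44.7% and 47.7%). Centring on the 75th percentile moved the median of all genes to -0.125 against whole marrow and to -0.194 between the wild type groups, where the 7 genes then had medians of -0.955 and -0.682. With the replicate number as a block, which could be used for the wild type comparison alone, 0 members passed, 4346 genes were higher and 2547 lower. In that fit the neighbours Fgf22 and Mcpt4 were no longer past the threshold, 4 protease inhibitors fell and 1 of the other promyelocyte genes rose. Same-numbered wild type arrays are not known to be paired. RMA signal near the median intensity, as for Prss57 in leukemia 2, limits the size of a difference.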

Other observations

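Markers of the other marrow cells gave the setting in which the primary granule genes were measured. Over all genes, 14.6% rose and 9.93% fell in the leukemias against whole marrow, 2.95% rose and 5.74% fell against lineage-negative marrow, and 4328 rose and 2587 fell of 19938 in lineage-negative against whole marrow. Of 9 erythroid markers measured of 12 listed, 7 rose and 0 fell in the leukemias against whole marrow, and 6 rose and 0 fell in lineage-negative against whole marrow. Of 9 B cell markers measured of 10, 9 fell in both of these comparisons. Of 12 basophil and mast cell markers, 5 lay below the median intensity of all probe sets on every array. In the leukemias 5 of the 12 fell against lineage-negative marrow and 5 fell against whole marrow, where 1 rose, Gata2, which also stands in the stem list. In lineage-negative against whole marrow 4 of these 12 rose, namely Prss34, Fcer1a, Ms4a2 and Gata2, and 2 fell, Hdc and Mcpt4, of which Mcpt4 is 1 of the dim genes. Mcpt8 and Cpa3 were higher on every pool than on every whole marrow array but did not pass. Of 7 eosinophil markers measured of 9, 4 fell and 1 rose in the leukemias against lineage-negative marrow, the 1 that rose being lost without any 1 pool or without leukemia 1 or 2, and 6 fell against whole marrow. In lineage-negative against whole marrow 1 of these 7 rose and 1 fell. Of 9 stem and progenitor markers measured of 11, 6 rose in lineage-negative against whole marrow, and 3 fell in the leukemias against lineage-negative marrow (5 without pool 2 or with array weights). In the leukemias against whole marrow 2 of these 9 rose, Slamf1, a stem cell surface receptor, at 3.17 ± 0.37 and Gata2, a stem and progenitor transcription factor, at 3.13 ± 0.32. There 2 fell, Cd34 at -0.99 ± 0.28 and Procr, dim in every group, at -0.31 ± 0.08, a count that ran from 0 to 4 over the alternatives. Meis1 (-0.71 ± 0.24) and Kit (-0.33 ± 0.12) were lower on every leukemia than on every whole marrow array but did not pass. The median of the list was -0.30. Of 10 monocyte markers measured of 12, 2 rose in the leukemias against lineage-negative marrow and 6 did without leukemia 2, while 0 passed against whole marrow by limma, with 1 at an unadjusted p under 0.05. The part of these cell types in the values of the primary granule genes was not tested.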
